A study of Olea europaea with 6 samples.

Results

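The transcripts described here are 3 olive expressed sequence tags (ESTs, partial reads of cloned cDNA), of 5543 olive ESTs on the array. GO243211_1 and GO243814_1 are annotated with defense response and response to biotic stimulus, and GO243777_1 with type I hypersensitivity. They were chosen by the study's lists of transcripts that were lower in mature than in juvenile leaves in both years, so their leaf values are given as a description and without a test. The arrays of fruit took no part in that choice. RNA came from *Olea europaea* cv. Ayvalık, an olive cultivar that bears heavily in one year (on) and little in the next (off). Unripe fruit (UF) was picked in July and ripe fruit (RF) in October, from a tree in its on year. Juvenile leaves were taken in July and mature leaves in November, from a tree in its on year (ON-J and ON-M) and from a neighbouring tree in its off year (OFF-J and OFF-M). On-year and off-year leaves thus also differed in tree and in calendar year, and these cannot be told apart. The fruit was picked in the calendar year of the off-year leaves, the year after the on-year leaves. UF, RF, OFF-J, OFF-M and ON-J had 2 arrays each and ON-M had 1, in all 11 arrays in 6 groups.

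Plants answer fungi, bacteria and insects with inducible proteins, some of which are also made during normal development of flowers, fruits and leaves. The term response to biotic stimulus covers any answer to another organism, and defense response its protective part. Type I hypersensitivity is a term from human immunology for immediate allergy. It does not name a plant process, and in an olive EST it reflects how the sequence was annotated. The sample labels name no treatment with a pathogen or pest, and the comparisons concern fruit ripening, leaf age and bearing year. Ripe fruit and mature leaves were picked in later months than unripe fruit and juvenile leaves, so stage and season cannot be told apart.

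Values are log2 hybridization signals, so that a difference of 1 is a doubling. Each member had 3 probes, and signals of different ESTs depend on their probes, so that only differences of one EST between groups were compared. Across the arrays the median of all probe sets was 5.91 to 5.99, that of the olive ESTs 9.83 to 11.43, and the random control probes, which mark the background, read 5.18 to 5.48. The olive median was lowest on the RF arrays (9.83 and 10.22) and next lowest on the ON-M array (10.66). The study's methods call the 2 arrays of a group biological replicates but do not say whether these were separate trees, so that p-values measure only the spread between these arrays, which may be technical. In whole organs, fewer cells of a type and less RNA per cell cannot be told apart.

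All 3 ESTs had the same order of group means, with UF highest, followed by ON-J, OFF-J, RF, OFF-M and ON-M. This order was found in 39 of the 5543 olive ESTs. The choice had already set mature below juvenile leaves in each year. Part of the order was thus fixed, and the count only places the members. GO243211_1 read 14.43 and 14.40 in UF, 13.61 and 13.47 in ON-J, 13.17 and 13.18 in OFF-J, 11.38 and 12.04 in RF, 11.22 and 10.96 in OFF-M and 7.68 in ON-M. The widest gap in the order lay between OFF-M and ON-M. GO243814_1 read 14.39 and 14.48 in UF, 13.45 and 13.33 in ON-J, 13.11 and 12.89 in OFF-J, 11.34 and 11.76 in RF, 10.92 and 10.92 in OFF-M and 7.55 in ON-M. Its widest gap lay between OFF-M and ON-M as well. GO243777_1, the hypersensitivity EST, read 14.26 and 14.22 in UF, 12.42 and 12.16 in ON-J, 11.80 and 11.80 in OFF-J, 10.55 and 10.52 in RF, 9.05 and 9.21 in OFF-M and 7.61 in ON-M. Here the drop from UF to juvenile leaves was wider than in the defense ESTs, and the single ON-M array was again lowest. Even there the 3 ESTs lay 2.35 to 2.49 above the random control of that array.

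**Figure D1:**
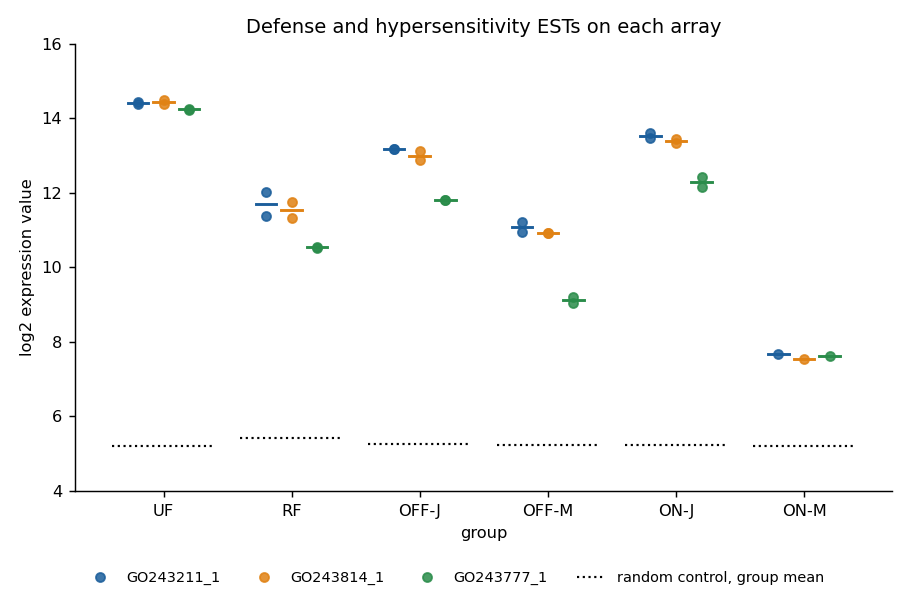
Log2 expression value (y axis) of GO243211_1, GO243814_1 and GO243777_1 on each array, by group (x axis). Points are arrays, short lines are group means and dotted lines the group mean of the random control. UF arrays lie at 14.22 to 14.48 and the single ON-M array at 7.55 to 7.68. Heights of different ESTs are not comparable.

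The fruit comparison asked which transcripts differ between unripe and ripe fruit. All 3 ESTs were called higher in UF by limma (two-sided, over 54615 probe sets). A call required a difference of 2 or more on the log2 scale and a p under 0.05 after Benjamini-Hochberg adjustment. Of the olive ESTs, 17.3% were called higher in UF and 3.73% higher in RF, and of all probe sets 3.46% and 3.3%. GO243777_1 had the largest difference of the 3, with 14.24 ± 0.03 in unripe and 10.54 ± 0.02 in ripe fruit (SD, n = 2 each). The log2 difference was 3.71 (SE 0.21, adjusted p = 8.29e-06), or 13.1-fold. GO243814_1 averaged 14.44 ± 0.07 in unripe and 11.55 ± 0.30 in ripe fruit (SD, n = 2 each), a difference of 2.89 (SE 0.23, adjusted p = 6.09e-05) or 7.41-fold. GO243211_1 was 14.42 ± 0.02 and 11.71 ± 0.46 (SD, n = 2 each), a difference of 2.71 (SE 0.26, adjusted p = 0.00018) or 6.53-fold. The 95% intervals were 3.23 to 4.18, 2.37 to 3.41 and 2.12 to 3.30. Larger UF excesses were found in 440 olive ESTs for GO243777_1, in 630 for GO243814_1 and in 701 for GO243211_1.

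The olive median of the arrays was itself 1.01 higher in UF than in RF. The median difference of single olive ESTs was 0.11, so centring took off more than the median olive EST differed. With each array centred on its olive median, GO243777_1 kept its call at a difference of 2.70 (adjusted p = 0.000121). GO243814_1 then stood at 1.88 (adjusted p = 0.000341) and GO243211_1 at 1.70 (adjusted p = 0.000915), both under the size set for a call. This centring turned the balance of calls over the olive ESTs, with 10.7% higher in UF and 16.1% higher in RF.

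Juvenile leaves of the on and off years were set side by side to see whether bearing year showed before maturity. The juvenile arrays took part in the choice of the members, so their values are a description here too. The ON-J means were higher in all 3 ESTs. The differences were 0.37 (SE 0.26) for GO243211_1, 0.39 (SE 0.23) for GO243814_1 and 0.49 (SE 0.21) for GO243777_1, all small beside those at maturity. Over all probe sets limma called 0%, with 53 at an unadjusted p under 0.05 and the same size, and the methods' t-test at its own thresholds listed 16. The olive median of ON-J was 0.36 above that of OFF-J, and after centring on it the 3 differences were 0.00, 0.02 and 0.13. The median difference of single olive ESTs was 0.18.

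In leaves the members were lower at maturity in each year, as the choice required, and the depth of the difference was not the same in both. GO243211_1 went from a mean of 13.54 in ON-J to 7.68 in ON-M, a difference of −5.85 (SE 0.32) or 57.8-fold. In the off year it went from 13.17 to 11.09, a difference of −2.08 (SE 0.26) or 4.23-fold. GO243814_1 differed by −5.84 (SE 0.28) in the on year and −2.08 (SE 0.23) in the off year, nearly the same figures. GO243777_1 had the reverse ranking, with −4.68 (SE 0.25) in the on year, less than the defense ESTs, and −2.67 (SE 0.21) in the off year, more than they had. These are 25.7-fold and 6.37-fold. Of the olive ESTs, 4.56% were called lower and 0.18% higher at maturity in the on year, and 0.289% lower and 2.94% higher in the off year.

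By their choice the members are among the olive ESTs with the largest decreases, and their ranks are given only to place them. In the off year 2 olive ESTs had a larger decrease than GO243777_1, against 14 for GO243211_1 and 13 for GO243814_1. In the on year the numbers were 27, 4 and 5. A decrease of at least 2 in both years was found in 18 olive ESTs in all. GO243211_1, at −2.08 in the off year, lies just inside the size threshold, and GO243848_1, the other hypersensitivity EST, just outside it at −1.73.

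The on-year change exceeded the off-year change by 3.77 (SE 0.41) in GO243211_1, 3.76 (SE 0.36) in GO243814_1 and 2.01 (SE 0.33) in GO243777_1. Most of this lay in the mature leaves. ON-M was below OFF-M by 3.41 (SE 0.32) and 3.37 (SE 0.28) in the defense ESTs and by 1.52 (SE 0.25) in GO243777_1, which does not reach the size threshold there. All these values rest on the single ON-M array, which has no replicate and whose spread was taken from the other groups. Its olive median was 0.71 below that of OFF-M, while the median difference of single olive ESTs was −0.26. After centring, the differences from OFF-M were −2.70, −2.66 and −0.81, while those from ON-J were −5.20, −5.18 and −4.03.

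**Figure D2:**
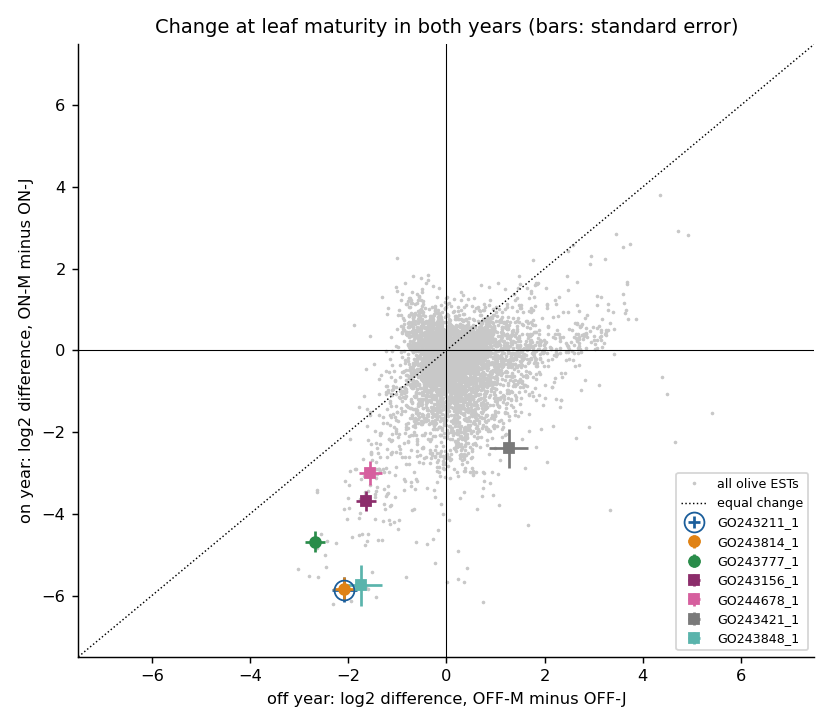
Log2 difference at leaf maturity in the off year (x axis) and the on year (y axis) for every olive EST in grey, with the members as circles and the ESTs of the same terms as squares (bars: standard error). The open circle is GO243211_1, drawn around GO243814_1, at −2.08 and −5.85. All 7 named ESTs lie below the line of equal change.

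Fruit and leaves of July were set side by side without a test, since the leaf arrays took part in the choice. UF differed from OFF-J also in tree and bearing year and from ON-J also in calendar year, and organ cannot be told apart from these. Whether UF and ON-J came from the same tree is not stated by the study. UF exceeded OFF-J by 1.25 (SE 0.26) in GO243211_1, 1.44 (SE 0.23) in GO243814_1 and 2.44 (SE 0.21) in GO243777_1. It exceeded ON-J by 0.88, 1.05 and 1.95. The hypersensitivity EST thus had the widest excess of unripe fruit over juvenile leaves of the 3. RF, picked in October, differed from the off-year leaves also in month, tree and bearing year. RF lay above OFF-M by 0.62 (SE 0.26), 0.63 (SE 0.23) and 1.41 (SE 0.21), and below OFF-J by 1.46, 1.45 and 1.26. The olive median of RF differed by −1.34 from that of OFF-M and by −0.93 from that of OFF-J. After centring on the olive medians, the RF differences were 1.96, 1.97 and 2.75 from OFF-M and −0.53, −0.52 and −0.33 from OFF-J.

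The defense ESTs followed one another closely. Over the 11 arrays GO243211_1 and GO243814_1 had a Pearson r of 0.998, the highest of 17416 probe sets whose range was at least 2. Over the 7 leaf arrays r was 0.999. After each profile was centred on its mean, the largest gap between them on any array was 0.21. Whether they are reads of the same transcript was not tested, since their sequences were not used here, so they are not counted as independent genes. GO243777_1 had an r of 0.944 with GO243211_1 and 0.954 with GO243814_1. These are descriptions over arrays that share groups and organs.

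Next to the members, the probe sets most like both defense ESTs were GO243991_1, GO243147_1 and FN998464_1, with r of 0.987, 0.984 and 0.974 for GO243211_1 over 11 arrays. GO243991_1 is annotated with fatty acid metabolism and oxidation-reduction. GO243147_1 and FN998464_1 are among the transcripts annotated with other biotic defense. For GO243777_1 the most alike were GO244883_1 (r 0.988), also annotated with fatty acid metabolism, and GO244160_1 (0.985) and FL683700_1 (0.984), both annotated with protein folding and defense to bacteria. Of these 6 probe sets, 4 were called higher in UF, where 17.3% of all olive ESTs were. They were picked by likeness over arrays that include the fruit, so nothing is read from this count. The UF excess was 3.92 (SE 0.32) for GO243991_1 and 3.62 (SE 0.23) for GO244883_1, beside 2.71 to 3.71 for the members. For GO243147_1 it was 2.01 (SE 0.23) and for GO244160_1 2.07 (SE 0.23), while FL683700_1 at 1.74 and FN998464_1 at 1.24 were not called.

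The remaining ESTs with the members' own terms did not share their fruit pattern as a group. GO243156_1, GO243421_1 and GO244678_1 carry the defense and biotic stimulus terms and GO243848_1 the hypersensitivity term. In the fruit comparison, 2 of these 4 were called higher in UF and none higher in RF, beside 17.3% and 3.73% of all olive ESTs. GO243156_1 read 13.34 and 13.51 in UF against 14.75 and 14.72 in RF, so that here the RF arrays were the higher ones. The difference was −1.31 (SE 0.21, adjusted p = 0.00228 by limma), under the size set for a call. GO244678_1 likewise read 13.28 and 13.45 in UF and 14.66 and 14.21 in RF, a difference of −1.07 (SE 0.23, adjusted p = 0.00984 by limma). In fruit both ran opposite to GO243211_1 and GO243814_1. With arrays centred on their olive medians both were called higher in RF, at −2.31 and −2.08 (adjusted p = 0.000209 and 0.000691 by limma).

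In leaves GO243156_1 and GO244678_1 went the members' way. GO243156_1 read 13.72 and 13.82 in ON-J, 10.09 in ON-M, 13.63 and 13.68 in OFF-J and 12.10 and 11.91 in OFF-M. GO244678_1 read 13.46 and 13.69 in ON-J, 10.57 in ON-M, 13.50 and 13.54 in OFF-J and 12.02 and 11.91 in OFF-M. With each other they had an r of 0.994 over the 11 arrays. With GO243211_1, GO243156_1 had an r of 0.995 over the 7 leaf arrays but 0.697 over all 11, and 0.25 over the 10 arrays without ON-M. The same defense terms thus held 2 pairs of closely parallel ESTs, alike in leaves and opposite in the sign of their fruit difference.

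GO243421_1 followed neither pair. It read 9.79 and 9.90 in UF, 6.23 and 7.20 in RF, 9.68 and 8.97 in OFF-J, 10.39 and 10.80 in OFF-M, 10.18 and 10.86 in ON-J and 8.12 in ON-M. It was called higher in UF by 3.13 (SE 0.40, adjusted p = 0.000803 by limma), but in the off year its mature leaves were the higher ones, by 1.27. GO243848_1 read 11.53 and 11.46 in UF, 6.04 and 7.37 in RF, 10.94 and 10.31 in OFF-J, 8.95 and 8.84 in OFF-M, 11.80 and 11.57 in ON-J and 5.94 in ON-M. Its UF excess of 4.79 (SE 0.41, adjusted p = 9.39e-05 by limma) was in the direction of GO243777_1, and its on-year difference at maturity was −5.74. Its lowest arrays were those of RF among the fruits and ON-M among the leaves. They lay on average only 1.28 and 0.74 above the random control, so the sizes of these differences are uncertain. The same holds for GO243421_1 in RF, with a mean 1.295 above the control.

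**Figure D3:**
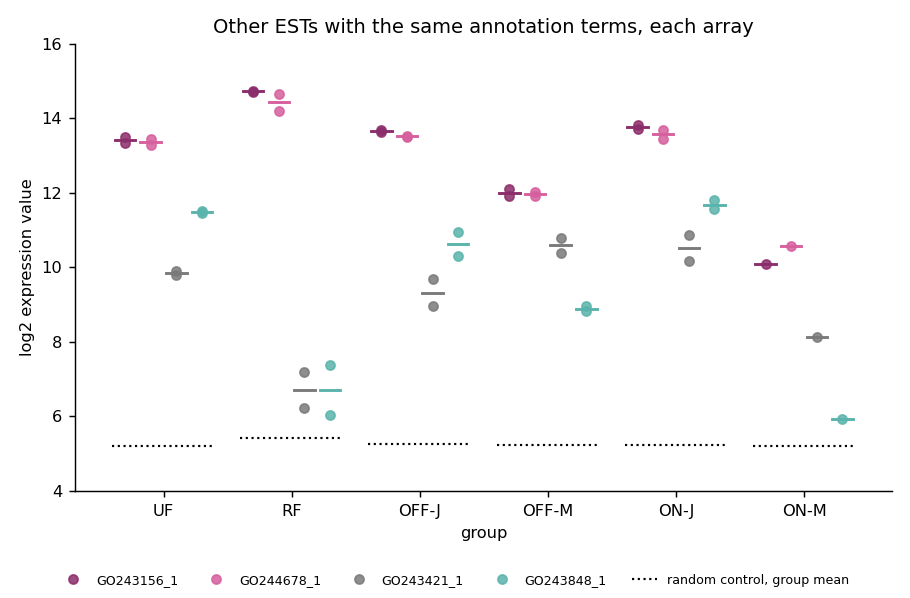
Log2 expression value (y axis) of the 4 other ESTs with the members' annotation terms on each array, by group (x axis). Points are arrays, short lines group means and dotted lines the random control. GO243156_1 and GO244678_1 are higher in RF than in UF, while GO243421_1 and GO243848_1 drop to 6.04 to 7.37 in RF. Heights of different ESTs are not comparable.

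A wider set of 43 transcripts annotated with biotic defense, the 4 above included and the members left out, was counted in the same fit. It was drawn from the study's tables of calls on these samples and is not independent evidence of a direction. In fruit, 14 were called higher in UF and 1 higher in RF, with a median difference of 0.98, against 0.11 over the olive ESTs and −0.03 over all probe sets. The count for RF was 5 without RF replicate 1 and 2 without UF replicate 1, and with arrays centred on their olive medians the counts were 8 for UF and 11 for RF. Counts are also given by the origin of the probe set, with no test between them. Of the 28 other olive ESTs, 12 were called higher in UF and 0 higher in RF (median 1.69), while of the 11 poplar sequences 0 were called higher in UF and 1 higher in RF (median −0.59). Of all olive ESTs, 17.3% were called higher in UF and 3.73% higher in RF. Of all poplar probe sets, 1.9% were called higher in UF and 3.25% higher in RF, so the background differed by origin as well.

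The largest UF excesses among those olive ESTs were in GO243351_1, GO246421_1 and GO244589_1. GO243351_1, which also carries photosynthesis terms, had a mean of 13.10 in UF and 4.93 in RF, and GO246421_1 of 11.22 and 4.30. Neither was above the random control on any RF array. Taken against that control, or against the EST's own value where it was higher, they were at least 205-fold and at least 55.6-fold higher in UF (adjusted p = 6.92e-07 and 1.02e-06 by limma). GO244589_1 was above the control on 1 of the 2 RF arrays, with 5.62 and 5.14 against controls of 5.36 and 5.48, and was at least 43.6-fold higher in UF (adjusted p = 4.23e-06 by limma). The members' RF means, at 10.54 to 11.71, stayed far above the control. The poplar sequence called higher in RF was grail3.0001090401, named after its values were seen, with a difference of −2.38 (adjusted p = 0.00136 by limma).

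**Figure D4:**
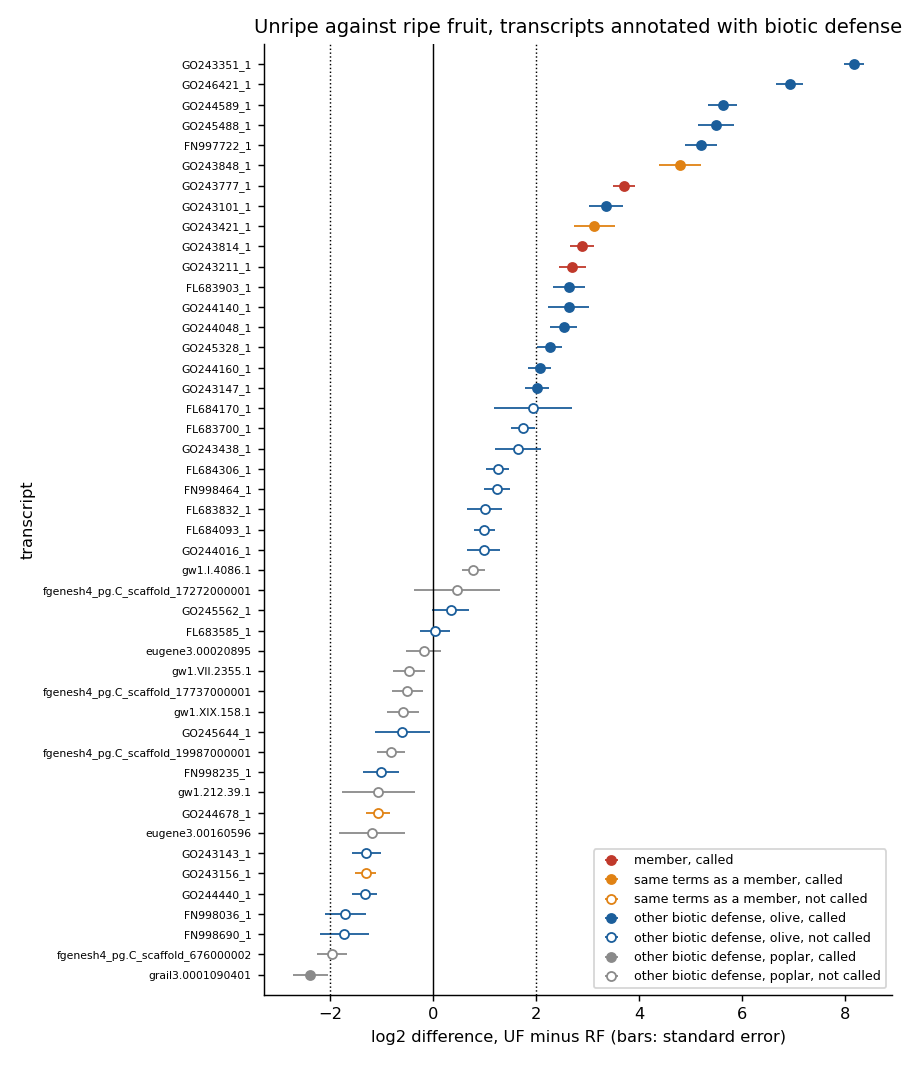
Log2 difference of UF minus RF (x axis, bars: standard error) for the members and the 43 other biotic defense transcripts (y axis). Filled points were called, and dotted lines mark a difference of 2 either way. The members lie at 2.71 to 3.71, and GO243156_1 and GO244678_1 on the RF side. Points are measured values, also where an RF array was not above the random control.

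The single ON-M array has no replicate, so the on-year change of the 43 at leaf maturity is given without calls. Their median difference was −0.73 in the on year and 0.06 in the off year. By origin, the on-year median was −2.24 for the 28 other olive ESTs and 2.01 for the 11 poplar sequences. It was −0.195 over all olive ESTs. In the off year 2 of the 43 were called lower and 12 higher. Over all probe sets, the on-year shares were 0.485% called lower and 0.0677% called higher, and the off-year shares 0.0439% and 0.341%. Since the set was drawn from calls in these leaves, nothing is read from its larger shares. Of 7 olive ESTs for photosynthesis and chlorophyll, drawn from the same tables and overlapping the wider set in GO243351_1 and GO245562_1, 3 were called higher in UF and 0 higher in RF (median 1.79), where 17.3% of all olive ESTs were higher in UF. In the on year the median difference of the 7 at maturity was −2.18. In the off year 2 were called higher and 0 lower (median −0.18), where 2.94% and 0.289% of all olive ESTs were. The members' differences there were −2.08 to −2.67, but the choice required a decrease, so the 2 sets are not compared. The part of green tissue in the members' fruit and on-year differences was not tested.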

How the data were processed

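Cy3-labelled samples of olive fruit and leaf were measured on 11 oligonucleotide arrays carrying olive ESTs and poplar sequences. The authors quantified the scans with DEVA, subtracted background, applied quantile normalization and RMA, and deposited log2 values, used here without further normalization. The version of RMA is not given in the sources used here. A deposited table of averaged log2 values equalled the array means within 1.78e-15. The number of arrays limits the precision.

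Groups came from the sample labels. The random control was left out and limma 3.58.1 (R 4.3.3) fitted 54615 probe sets with 6 group means, 5 residual and 3.67 prior degrees of freedom. The script was tested on simulated data. Figures used Python 3.11.15 and matplotlib 3.10.9.

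The members and lists were chosen with earlier results of these data known. The planned test of juvenile leaves is given without p-values, since its arrays took part in the choice. Lists follow words in the annotation terms of the study's tables, and the gene table given as reference matched 0 of the olive ESTs. Named are the 3 members, the 4 ESTs of the same terms, the 3 called olive biotic defense ESTs with the largest fruit difference in each direction (none was called higher in RF) and, per member, the 3 probe sets of highest Pearson r. A second ON-M array was not analysed here. Alternatives were olive-median centring, the methods' t-test, other filters and thresholds, olive ESTs or compared arrays alone, a replicate block and leaving out each array.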

Additional observations from a re-analysis of the deposited data

How the results depend on the processing

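No difference of the 3 members changed sign under the alternatives run. The balance of list calls did. Centring arrays on their olive medians ended the UF over RF calls of GO243211_1 (1.70) and GO243814_1 (1.88), set the on-year differences at maturity to −5.20, −5.18 and −4.03, the off-year ones to −2.49, −2.50 and −3.09 (GO243211_1, GO243814_1, GO243777_1), those of ON-M from OFF-M to −2.70, −2.66 and −0.81, and gave 8 list calls for UF and 11 for RF against 14 and 1. Under the methods' t-test with adjustment, the differences of 2.71 and 2.89 no longer passed (adjusted p = 0.126 and 0.099, limma's being 0.00018 and 6.09e-05). That of 3.71 passed narrowly (adjusted p = 0.0489 by the t-test). With limma fitted on the UF and RF arrays alone all 3 calls held, at larger adjusted p of 0.0221, 0.0157 and 0.00721 (GO243211_1, GO243814_1, GO243777_1). The 1 RF call became 8 where a difference of 1 sufficed and 0 when olive ESTs were tested alone.

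Leaving out 1 array at a time gave UF over RF differences of 2.38 to 3.03, 2.68 to 3.10 and 3.69 to 3.73, with every call kept, and ON-J over OFF-J differences of 0.30 to 0.43, 0.27 to 0.50 and 0.36 to 0.62. The on-year differences were −5.92 to −5.79, −5.90 to −5.78 and −4.81 to −4.55, the off-year ones −2.21 to −1.95, −2.19 to −1.97 and −2.75 to −2.59, and those of ON-M from OFF-M −3.54 to −3.28, −3.37 and −1.59 to −1.44. List calls were 13 to 16 for UF and 1 to 5 for RF. Without the ON-M array its comparisons have no value.

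The replicate numbers paired the arrays weakly at most. Correlations were −0.0464 to 0.152 over 10 pairs of groups, and 3 of them were above 0.1. A replicate block changed no call of the members (adjusted p = 0.000583, 0.000237 and 4.44e-05 for the fruit differences of 2.71, 2.89 and 3.71, limma) and gave 3685 calls over all probe sets against 3691.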
